A study of Mus musculus with 52 samples.

Results

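The nucleus accumbens of mice given insulin at the high rate was compared with that of mice given saline, across all genes. The comparison uses 12 of the 52 libraries of the series: 6 from high-insulin mice and 6 from basal mice, chosen by their labels alone. All mice were males of the C57BL/6J inbred strain, 3 months old and without a transgene, and all carried a catheter in a jugular vein. The high group received insulin at 12 mU/kg/min and the basal group received saline, each for 3 h in awake animals, together with an infusion of 20% glucose, in a clamp that holds blood sugar at a set level. A further 6 accumbens libraries came from mice at a low rate of 4 mU/kg/min. The hypothalamus (5 high, 5 basal) and the hippocampus (6 high, 6 basal) of the same series serve for comparison. The labels do not tie a library to an animal, so p-values measure only the spread between libraries, which may in part be technical.

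The nucleus accumbens is the ventral part of the striatum and serves reward and the drive to seek food. Most of its neurons are inhibitory projection neurons. One class carries the dopamine receptor Drd1 with the peptides dynorphin (Pdyn) and substance P (Tac1), and the other carries Drd2 with enkephalin (Penk). Insulin reaches the brain through the endothelium of its vessels and acts on the receptor Insr, whose adaptors Irs1 and Irs2 pass the signal to PI3K, AKT and mTOR. In liver and fat this pathway shuts down FOXO-driven fasting genes and switches on sterol and fatty acid synthesis.

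Read counts per library totalled 3488471 to 8279612 (median 4419762.5) in the high group and 3423230 to 7258565 (median 4789474.5) in the basal group. Levels are given in CPM, a gene's counts scaled to the normalised size of its library. Markers of the labelled tissue were present throughout: the summed level of 36 striatal projection neuron genes was 6925 to 13850 CPM in high libraries and 7875 to 11770 CPM in basal libraries. Hypothalamic neuron markers summed to 36.6 to 129 CPM in high libraries and 39.7 to 113 CPM in basal libraries. Single libraries stood apart within each group. Slc17a7, the vesicular glutamate transporter of cortical pyramidal neurons, was at 546 CPM in high replicate 5 and at 5.26 to 69.6 CPM in the other high libraries, against 730 and 271 CPM in basal replicates 3 and 1 and 1.63 to 50.6 CPM in the other basal libraries. Skeletal muscle genes stood apart in high replicates 5 and 6, as described next. For several lists and genes, values without these libraries are given as well.

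No gene differed between high insulin and saline at an adjusted p under 0.05. Of 13769 genes tested with edgeR's quasi-likelihood test, 0 were called (0.0%), 0 passed a threshold of 0.1, and every Benjamini-Hochberg adjusted p rounded to 1.0. At an unadjusted p under 0.05 there were 326 genes (2.37%), of which 214 were higher in the high group (1.55%) and 112 were lower (0.813%). A test with no true difference would give about 688.5 genes at that level. DESeq2 also called 0 genes, with 435 at an unadjusted p under 0.05, and limma-voom called 0, with 324. The data bound the size of any difference for most genes: the median standard error of a log2 fold change was 0.165, and 12960 genes (94.1%) had a 95% interval that lay within a 2-fold change in either direction. The share with an interval within a 1.5-fold change was 69.2%. The genes named in the following paragraphs are therefore given as values, and none passed the threshold.

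**Figure D1:**
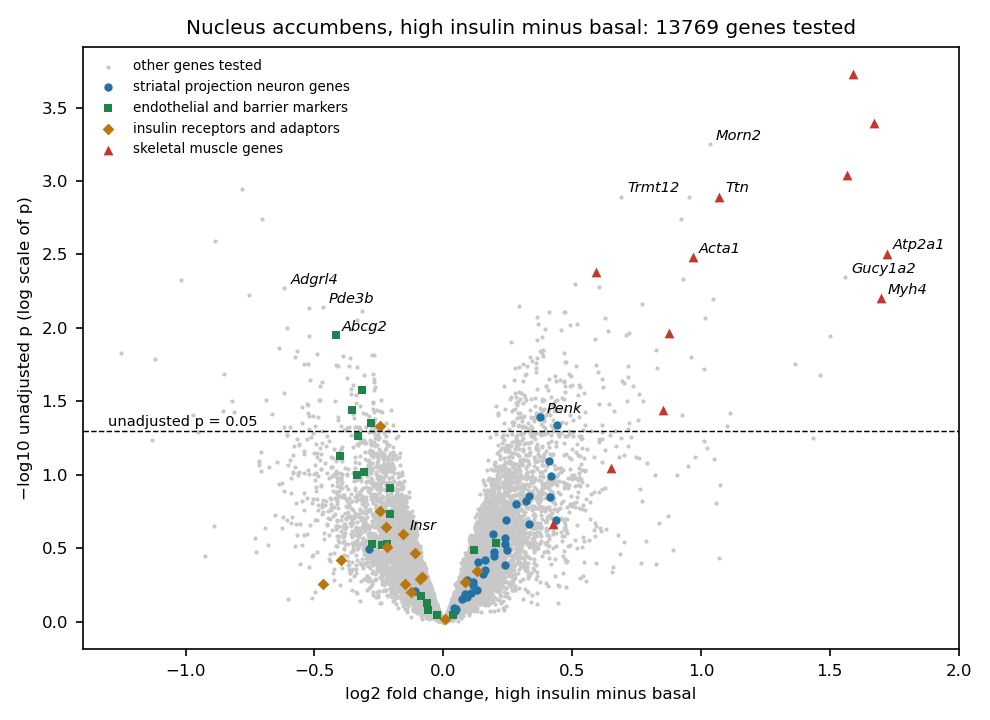
Log2 fold change (x axis, high insulin minus basal) and −log10 of the unadjusted p (y axis) of each of the 13769 genes tested in the nucleus accumbens, with 4 groups of genes marked by colour and shape. No point passes an adjusted p of 0.05; skeletal muscle genes lie at the upper right, striatal projection neuron genes mostly right of 0, and endothelial markers and insulin receptor genes mostly left of 0.

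Many of the smallest p-values belonged to genes of skeletal muscle, a tissue that is not part of the brain. The gene with the smallest p was Mybpc2, a myosin-binding protein of fast muscle fibres. It was at 2.19 to 8.04 CPM in high libraries (median 4.32) and at 0.853 to 2.72 CPM in basal libraries (median 1.29), a log2 fold change of 1.59 ± 0.36 (SE, unadjusted p 0.000188), or 1.20 without high replicates 5 and 6. Of 18 muscle genes collected after their values had been seen, 12 were abundant enough to test. All of those 12 had a positive log2 fold change, with a median of 1.02, and 10 had an unadjusted p under 0.05. Because the genes were chosen for their values, the counts describe them and test nothing.

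The muscle signal was concentrated in a pair of high libraries. The summed level of the 18 genes was 277 CPM in high replicate 5 and 209 CPM in high replicate 6, against 65.9 to 102 CPM in the other high libraries and 45.8 to 76.9 CPM in basal libraries. Atp2a1, the calcium pump of fast muscle, was at 30.5 and 32.0 CPM in those 2 libraries, at 4.60 to 10.7 CPM in the other high libraries and at 1.52 to 6.71 CPM in basal libraries. Myh4, a fast myosin heavy chain, was at 101 and 45.5 CPM in them, at 11.8 to 17.6 CPM in the other high libraries and at 5.76 to 14.9 CPM in basal libraries. Without high replicates 5 and 6 the log2 fold change of Atp2a1 was 0.75 (1.72 with them), that of Myh4 was 0.48 (1.70) and that of Neb, the giant thin-filament protein nebulin, was 0.03 (0.88). That of Tnnt3, a fast troponin, was 1.06 without them (1.67 with them), and that of Ckm, the muscle creatine kinase, was 0.85 (1.57). Acta1, the skeletal actin, had 0.33 (0.97), and Ttn, the spring protein titin, had 0.56 (1.07). Eno3, the muscle enolase, differed from these: it was at 14.9 to 18.8 CPM in high libraries and at 8.36 to 15.1 CPM in basal libraries, and its log2 fold change of 0.59 ± 0.19 was 0.63 without the 2 libraries.

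**Figure D2:**
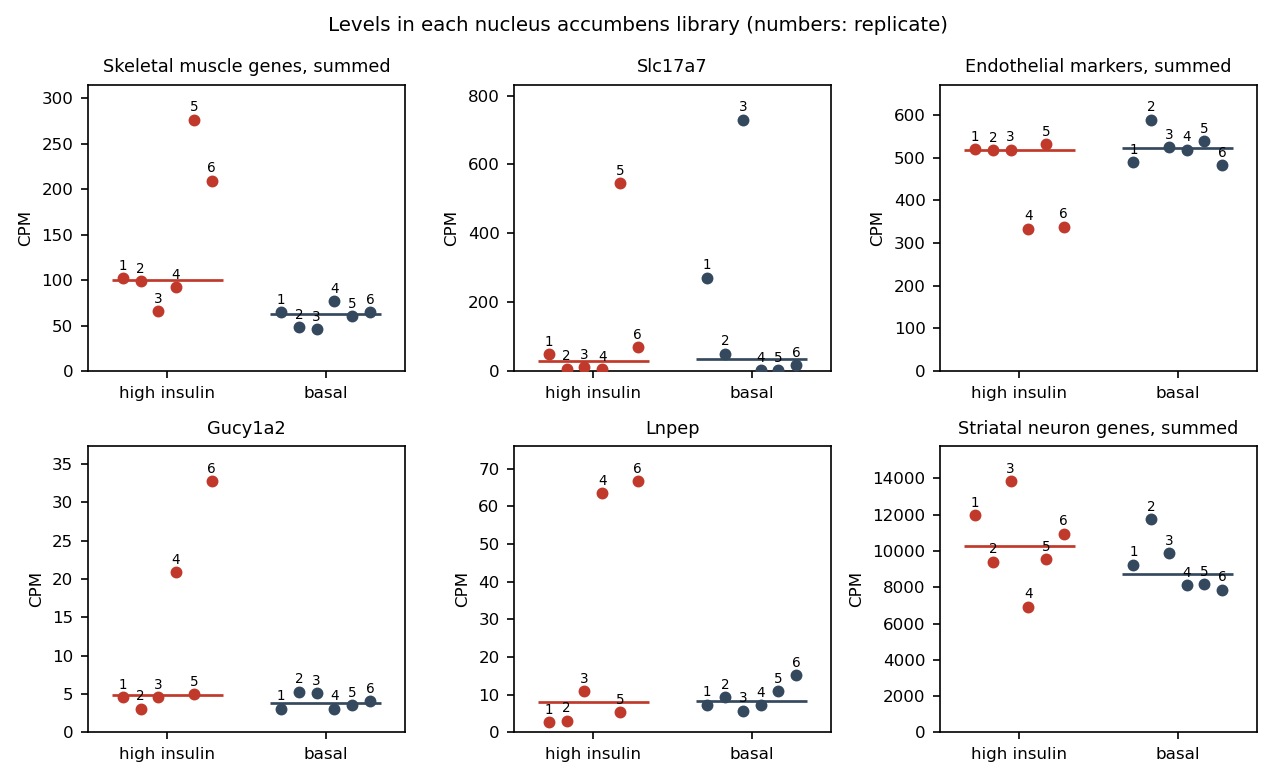
Levels in CPM (y axes, linear from 0) in each of the 6 high-insulin and 6 basal libraries of the nucleus accumbens; points are libraries, numbers are replicates and lines are group medians. High replicates 5 and 6 hold the most muscle RNA, high replicates 4 and 6 hold the least endothelial and the most Gucy1a2 and Lnpep RNA, and Slc17a7 is high in high replicate 5 and in basal replicates 3 and 1.

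Outside muscle, the higher genes of smallest p were a mixed set. Morn2, a small protein of MORN repeats, was at 6.57 to 15.5 CPM in high libraries (median 8.40) and at 3.03 to 7.08 CPM in basal libraries (median 4.25). The log2 fold change against basal was 0.76 at the low rate and 1.03 ± 0.26 at the high rate. Trmt12, an enzyme of transfer RNA modification on chromosome 15 (58872674 to 58877127, GRCm38), was at 6.13 to 9.78 CPM in high libraries and 2.54 to 6.12 CPM in basal libraries, so that the groups did not overlap, with a log2 fold change of 0.69 ± 0.19 (unadjusted p 0.00128). Rps21, a ribosomal protein, and Pigyl, of GPI anchor synthesis, had log2 fold changes of 0.51 ± 0.16 and 0.60 ± 0.20.

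Gucy1a2, a subunit of the nitric oxide receptor guanylate cyclase, showed the uneven spread behind some of these values. It was at 20.8 CPM in high replicate 4 and 32.7 CPM in high replicate 6, at 3.09 to 5.03 CPM in the other 4 high libraries and at 3.08 to 5.30 CPM in basal libraries. The log2 fold change of 1.56 ± 0.48 thus rested on 2 of 6 libraries, and was 0.95 without replicate 6. Lnpep, the aminopeptidase IRAP that travels with the glucose transporter GLUT4, behaved alike: it was at 63.5 and 66.7 CPM in high replicates 4 and 6, at 2.72 to 10.9 CPM in the other high libraries and at 5.76 to 15.1 CPM in basal libraries, and its group medians were 8.17 CPM in high and 8.38 CPM in basal libraries. Oprm1, the mu opioid receptor, was at 9.35 and 10.1 CPM in the same 2 libraries and at 0.0 to 4.38 CPM in the other high libraries, against 1.19 to 3.41 CPM in basal libraries.

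The lower genes of smallest p had mostly smaller fold changes. Adgrl4, an adhesion receptor of endothelial cells, had a log2 fold change of -0.62 ± 0.20. It was at 15.8 to 43.7 CPM in high libraries (median 30.3) and at 37.5 to 55.6 CPM in basal libraries (median 45.9). Its lowest values were in high replicates 4 and 6, at 15.8 and 20.9 CPM. Pde3b, the phosphodiesterase through which insulin lowers cyclic AMP in fat cells, was at 8.96 to 13.8 CPM in high libraries (median 11.0) and at 12.7 to 18.0 CPM in basal libraries (median 16.2), with 4 of 6 high libraries below every basal library. Its log2 fold change was -0.47 ± 0.16 (unadjusted p 0.00719) and lay between -0.57 and -0.41 under every alternative setting. Slc38a2, the amino acid transporter SNAT2, was at 122 to 197 CPM in high libraries and at 177 to 245 CPM in basal libraries, a log2 fold change of -0.36 ± 0.13.

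The remaining lower genes by that rule were Fggy, a carbohydrate kinase (-0.52), Golga7, a partner of palmitoylating enzymes (-0.32), Kat2b, a histone acetyltransferase (-0.34), Sfswap, a splicing regulator (-0.29), Abcg2, an efflux pump of the blood-brain barrier (-0.42), Il1r1, the interleukin 1 receptor (-0.52), and Kctd12b (-0.57). Their unadjusted p-values ran from 0.00727 for Fggy to 0.0144 for Kctd12b. In Sfswap, basal replicate 1 stood apart at 90.8 CPM, above 67.1 to 73.3 CPM in the other basal libraries.

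Complete separation of the groups was rare. All 6 high libraries lay above every basal library in 6 genes (0.0436% of the 13769) and below every basal library in 3 genes (0.0218%). The 3 lower ones, named because of these values, were Inpp5b, Dnah17 and Rtkn2. Inpp5b, a phosphatase of inositol phospholipids, was at 40.4 to 47.2 CPM in high libraries and 49.0 to 54.8 CPM in basal libraries, a log2 fold change of -0.22 ± 0.10. Dnah17, an axonemal dynein, was at 1.68 to 2.89 CPM in high libraries and 3.33 to 4.77 CPM in basal libraries. Rtkn2, a rhotekin relative, was at 1.75 to 3.31 CPM in high libraries and 3.33 to 5.99 CPM in basal libraries. Of the 6 higher ones, Rab5c, a GTPase of early endosomes, was at 108.3 to 136 CPM in high libraries and 81.5 to 107.9 CPM in basal libraries. Nanos2, Zap70 and Ccdc163 were under 6 CPM in every library of either group, Trmt12 is described above, and 1 gene has no symbol in the annotation.

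The genes that carry the insulin signal showed no difference past the threshold. Insr, the insulin receptor, was at 88.1 to 178 CPM in high libraries (median 122) and at 128 to 151 CPM in basal libraries (median 140), with the high libraries spread on both sides of the basal ones. Its log2 fold change was -0.16, with a 95% interval of -0.43 to 0.12. Igf1r, the related receptor of insulin-like growth factor, was at 23.9 to 63.0 CPM in high libraries and 43.6 to 53.3 CPM in basal libraries (log2 fold change -0.22, interval -0.59 to 0.15). In both receptors the lowest value was in high replicate 2 and the highest in high replicate 3.

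Irs1, the first of its adaptors, was at 4.49 to 14.7 CPM in high libraries and 10.0 to 14.7 CPM in basal libraries (-0.22, interval -0.66 to 0.22). Irs2, whose transcription falls with insulin in liver, was at 41.6 to 72.2 CPM in high libraries (median 48.3) and 42.0 to 67.9 CPM in basal libraries (median 52.1). The log2 fold change of Irs2 was 0.01, with an interval of -0.31 to 0.32, and changed sign under 9 of 27 alternative settings. Of the 15 insulin receptor and adaptor genes tested, 12 had a negative and 3 a positive log2 fold change, with a median of -0.149, where all genes had a median of 0.0 with 6890 above 0 and 6879 below. The lowest p of that list belonged to Cblb, a ubiquitin ligase that limits receptor signalling, at 24.9 to 34.1 CPM in high libraries and 30.0 to 38.5 CPM in basal libraries (-0.24 ± 0.12, unadjusted p 0.0465). Shc1, an adaptor to the MAP kinase arm, followed with -0.25 ± 0.18.

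Further along the pathway, 30 genes of PI3K, AKT and mTOR signalling had a median log2 fold change of -0.047, with 9 above and 21 below 0, and none had an unadjusted p under 0.05. Eif4ebp2, the translation brake that mTOR releases in neurons, had -0.27 ± 0.14, and Rps6kb1, the S6 kinase, had -0.18 ± 0.12. Its substrate Rps6 had 0.28 ± 0.19, and Tsc1, an inhibitor of mTOR, had -0.15 ± 0.11. The 23 FOXO factors and fasting-responsive genes had a median of 0.013. Angptl4, an inhibitor of lipoprotein lipase that rises with fasting, was at 6.28 to 10.1 CPM in high libraries and at 3.64 to 15.2 CPM in basal libraries, so that the high libraries all lay inside the basal range. The log2 fold change of Angptl4 was -0.77 at the low rate and -0.41 ± 0.24 at the high rate. Bcl6 (-0.23) and Zbtb16 (-0.18), both repressors, had p-values above 0.1, and Foxo6 (0.46) was 0.11 without high replicate 1.

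**Figure D3:**
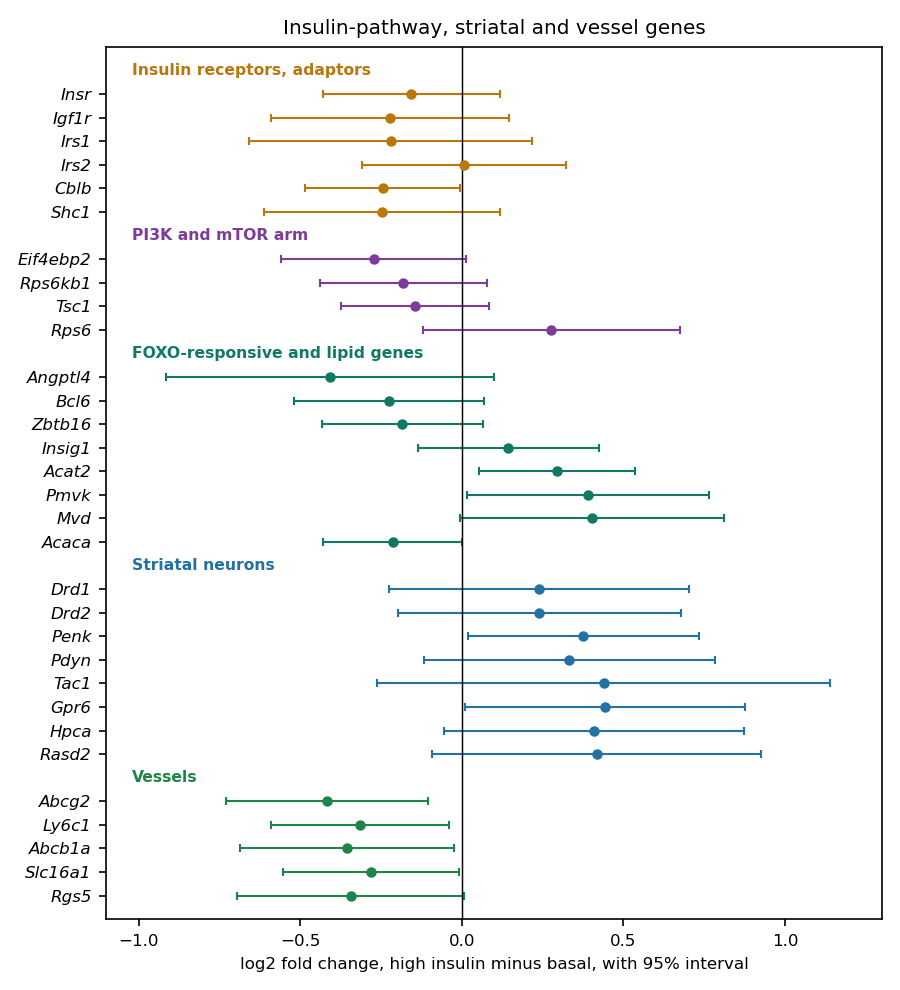
Log2 fold change (x axis, high insulin minus basal) with its 95% interval for 31 named genes (rows) in the nucleus accumbens, grouped by role. Intervals of Insr, Igf1r, Irs1 and Irs2 include 0 and stay within 0.66 of it. The sterol and striatal genes shown lie right of 0. The vessel genes shown, each named for a small p in its list, lie left of 0.

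Sterol genes lay slightly above 0 as a group. Of 28 genes of sterol sensing, cholesterol synthesis and uptake, 18 were above 0 and 10 below, with a median of 0.068. An unadjusted p under 0.05 in the upward direction was found for 2 of the 28, beside 1.55% of all genes, and in the downward direction for 0, beside 0.813%. Acat2, which makes the acetoacetyl-CoA that enters the pathway, was at 45.3 to 73.2 CPM in high libraries (median 54.6) and 38.4 to 53.4 CPM in basal libraries (median 45.3), a log2 fold change of 0.29 ± 0.12. Pmvk, phosphomevalonate kinase, was at 20.2 to 39.5 CPM in high libraries and 19.0 to 27.0 CPM in basal libraries (0.39 ± 0.18). Mvd, the enzyme after it, had 0.40 ± 0.20 (unadjusted p 0.0523).

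Insig1, the insulin-induced sensor that holds back sterol synthesis, was at 47.9 to 75.5 CPM in high libraries (median 72.5) and 53.9 to 76.1 CPM in basal libraries (median 61.6). In 5 of 6 high libraries it lay between 66.6 and 75.5 CPM, and replicate 3 was the low one. The log2 fold change was 0.14, with an interval of -0.14 to 0.42, and 0.23 without that replicate. The 18 fatty acid synthesis genes had a median of 0.028. Acaca, which makes malonyl-CoA, had the lowest p among them with -0.21 ± 0.10.

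Genes of energy metabolism and of ribosomes were slightly above 0 as groups. The 24 genes of glycolysis and the pentose phosphate pathway had a median of 0.099 (19 above, 5 below), the 39 nuclear respiratory chain genes had 0.165 (34 above, 5 below) and the 56 ribosomal protein genes had 0.155 (47 above, 9 below). Unadjusted p-values under 0.05 in the upward direction were found for 0, 2 and 6 of them, beside 1.55% of all genes. At the low rate the medians of glycolysis, respiratory chain and ribosomal protein genes were -0.02, -0.025 and -0.011 in that order. At the high rate they were -0.316, -0.366 and -0.583 in the hypothalamus and 0.004, 0.008 and 0.065 in the hippocampus. The 11 mitochondrially encoded genes had a median of -0.019 in the accumbens at the high rate. Examples are Ldhb, a lactate dehydrogenase subunit (0.23 ± 0.11), Tpi1, triosephosphate isomerase (0.29 ± 0.15), and the complex I subunits Ndufb10 (0.40 ± 0.18) and Ndufa5 (0.35 ± 0.16). Among ribosomal proteins Rps2 had 0.47 ± 0.18, Rpl38 0.74 ± 0.30, Rpl9 0.42 ± 0.18 and Rpl3 0.30 ± 0.13. Rpl38 was at 190.0 CPM in high replicate 4 and at 38.2 to 109 CPM in the other high libraries; without that replicate its log2 fold change was 0.37, and that of Rpl9 was 0.28.

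A property of the libraries is set beside these groups. A library's lean to GC-rich transcripts, measured as the Spearman correlation across genes of its deviation with transcript GC content, was 0.59 and 0.39 in high replicates 1 and 2 and -0.338 to 0.0202 in the other high libraries, against 0.412 in basal replicate 1, -0.564 in basal replicate 2 and -0.343 to 0.151 in the other basal libraries. With that lean as a covariate the median was 0.002 for glycolysis, 0.131 for the respiratory chain and 0.099 for ribosomal proteins. Leaving out single libraries gave 0.032 to 0.186 for glycolysis, 0.107 to 0.221 for the respiratory chain and 0.072 to 0.216 for ribosomal proteins. The part of the lean in these medians was not tested. Ldhb was highest in the same high replicates 1 and 2, at 827 and 731 CPM, against 531 to 680 CPM in the other high libraries and 498 to 662 CPM in basal libraries.

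Genes that define the projection neurons of the accumbens lay mostly above 0. Of 35 tested, 33 were above 0 and 2 below, with a median log2 fold change of 0.194, the highest median of the 40 lists. The median was 0.269 at the low rate, which shares the basal libraries. Penk, the precursor of enkephalin, was at 616 to 1137 CPM in high libraries (median 979) and 578 to 868 CPM in basal libraries (median 692), and 4 of 6 high libraries exceeded every basal one. Its log2 fold change was 0.38 ± 0.17 (interval 0.02 to 0.73, unadjusted p 0.0403). Gpr6, an orphan receptor of the same neurons, was at 27.8 to 69.6 CPM in high libraries (median 49.1) and 28.7 to 43.1 CPM in basal libraries (median 36.2), with 0.44 ± 0.21 (unadjusted p 0.0457).

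The other defining genes overlapped widely. Drd1 was at 172 to 474 CPM in high libraries (median 255) and 194 to 346 CPM in basal libraries (median 210), with a log2 fold change of 0.24 (interval -0.23 to 0.70). Drd2 was at 31.2 to 74.6 CPM in high libraries (median 53.6) and 32.6 to 56.5 CPM in basal libraries (median 45.9), with 0.24 (interval -0.20 to 0.68). Drd1 and Drd2 were both highest in high replicate 3 and both lowest in high replicate 4. The summed level of the whole list was likewise highest in replicate 3, at 13850 CPM, and lowest in replicate 4, at 6925 CPM. Without replicate 3 the log2 fold change of Drd1 was 0.03, that of Drd2 was 0.12 and the list median was 0.107.

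Pdyn was at 86.3 to 214 CPM in high libraries and 89.1 to 170 CPM in basal libraries (0.33 ± 0.22), and Tac1 was at 98.5 to 304 CPM in high libraries and 81.0 to 297 CPM in basal libraries (0.44 ± 0.33). Without high replicate 1 the log2 fold change of Pdyn was 0.19, and that of Tac1 ran from 0.29 without high replicate 1 to 0.75 without basal replicate 2. Hpca, the calcium sensor hippocalcin, had 0.41 ± 0.22, and Rasd2, the striatal GTPase Rhes, had 0.42 ± 0.24. The summed level overlapped widely between the groups (log2 difference 0.168, exact permutation test over the 12 libraries, two-sided p 0.338). In bulk tissue, more cells of a type and more RNA per cell cannot be told apart, here and for every cell type named.

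Lists of neuronal signalling lay closer to 0. Medians were 0.053 for 18 dopamine genes, 0.011 for 34 peptide genes, -0.009 for 10 endocannabinoid genes, -0.009 for 21 GABA genes and 0.007 for 35 glutamate genes. They were -0.001 for 49 potassium and HCN channels, -0.027 for 31 sodium and calcium channels, 0.048 for 10 acetylcholine receptors and -0.03 for 28 genes of netrin signalling and axon guidance. The 28 immediate early genes, which report recent firing, had a median of 0.083 with none at an unadjusted p under 0.05. That median was -0.079 without high replicate 5 and 0.248 without basal replicate 3. Those were the 2 libraries with the most Slc17a7 among the high and basal ones. The members of smallest p included Cacna1g, a T-type calcium channel (-0.36 ± 0.15), Sstr1, a somatostatin receptor (-0.48 ± 0.21), Gng7, the G protein subunit of striatal receptors (0.35 ± 0.20), Mgll, which degrades an endocannabinoid (0.31 ± 0.17), Dlg4, the postsynaptic scaffold PSD-95 (0.28 ± 0.14), and Ntn1, the ligand netrin-1 (0.37 ± 0.20, and 0.19 without high replicate 1). The tandem-pore potassium channels Kcnk10 and Kcnk9 had -0.60 ± 0.32 and -0.50 ± 0.28.

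Stress and hormone lists also lay close to 0, with medians of 0.042 for 22 glucocorticoid-responsive genes, 0.057 for 25 genes of the unfolded protein response, 0.077 for 19 heat shock genes, 0.015 for 19 clock genes and 0.065 for 24 growth factor genes. Nr3c1, the glucocorticoid receptor, was at 51.1 to 85.4 CPM in high libraries and 77.6 to 111 CPM in basal libraries (-0.34 ± 0.13, unadjusted p 0.0184). Ern1, a sensor of unfolded protein, had -0.31 ± 0.12, while Dnajb11, a chaperone of the same compartment, was at 32.2 to 54.0 CPM in high libraries and 29.2 to 40.0 CPM in basal libraries (0.36 ± 0.13, unadjusted p 0.0121). Bag3, a co-chaperone, had 0.55 ± 0.23, Mt1, a metallothionein, had 0.49 ± 0.26 and Dbp, a clock output gene, had 0.35 ± 0.20. Mt1 was highest in high replicate 1, at 459 CPM, where the other high libraries were at 149 to 312 CPM and the basal libraries at 119 to 221 CPM, and its log2 fold change was 0.23 without that replicate. The 14 genes of glucose transport and GLUT4 vesicles had a median of 0.022; after Lnpep the lowest p was that of Aspscr1, the tether of GLUT4 vesicles (0.26 ± 0.17).

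**Figure D4:**
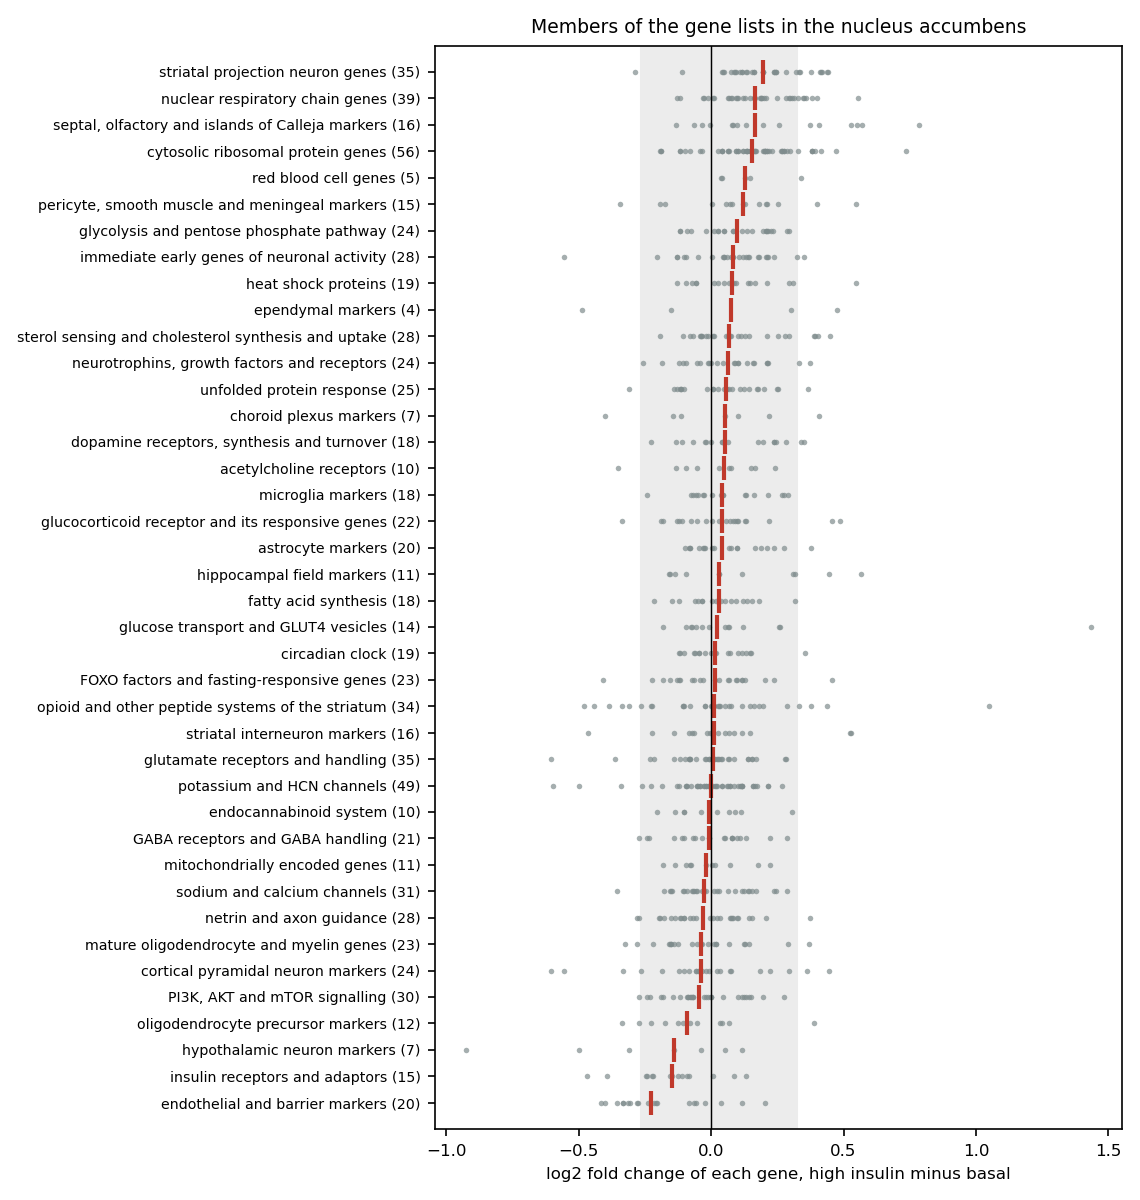
Log2 fold change of every tested member (grey points, x axis, high insulin minus basal) in 40 gene lists (rows, number of members tested in brackets), with the median of each list as a red bar and the central range of all genes, from -0.265 to 0.324 (5th to 95th percentile), shaded. Of the 40 medians, 26 changed sign when some 1 library was left out. List medians run from -0.228 for endothelial markers to 0.194 for striatal projection neuron genes, and all lie inside the shaded range.

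Endothelial and barrier markers lay lowest. Of 20 tested, 17 were below 0 and 3 above, with a median log2 fold change of -0.228 at the high rate and 0.011 at the low rate. Of these, 4 had an unadjusted p under 0.05, beside 0.813% of all genes in that direction: the barrier pumps Abcg2 and Abcb1a, the surface antigen Ly6c1, and Slc16a1, the lactate and ketone carrier. Abcg2 was at 7.94 to 17.3 CPM in high libraries and 16.0 to 19.9 CPM in basal libraries (-0.42 ± 0.15). In it 5 of 6 high libraries lay below every basal one, with high replicates 6 and 4 lowest, at 7.94 and 11.3 CPM.

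Abcb1a was at 12.5 to 25.2 CPM in high libraries and 20.5 to 25.2 CPM in basal libraries (-0.36 ± 0.16), with high replicates 4, 6 and 2 lowest. Ly6c1 was at 12.1 to 19.6 CPM in high libraries and 16.5 to 21.2 CPM in basal libraries (-0.32 ± 0.13), and Slc16a1 at 29.3 to 38.9 CPM in high libraries and 31.5 to 51.6 CPM in basal libraries (-0.28 ± 0.13). The summed level of the list was 333 and 338 CPM in high replicates 4 and 6 and 517 to 531 CPM in the other high libraries, against 483 to 589 CPM in basal libraries. High replicates 4 and 6 thus lay below every basal library, the other 4 lay within the basal range, and the exact permutation test of the sums gave a two-sided p of 0.227 (log2 difference -0.215). The list median was -0.136 without high replicate 4 and -0.305 without high replicate 5. Rgs5, a pericyte gene, had its lowest values in the same replicates 4 and 6, at 34.1 and 31.5 CPM, and -0.34 ± 0.17. It had the smallest p of the pericyte, smooth muscle and meningeal list, which mostly went the other way. Of the 15 genes tested in that list, 12 were above 0 and 3 below, with a median of 0.12.

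No marker list differed in summed level past the threshold. Over the 15 marker lists the smallest two-sided p of the exact permutation test was 0.13, for red blood cell genes (log2 difference 0.247), and the smallest adjusted p was 0.845; the smallest p this design allows is 0.00216. Log2 differences of the sums were 0.012 for astrocytes, 0.095 for microglia, -0.076 for mature oligodendrocytes, -0.124 for their precursors, 0.019 for striatal interneurons and 0.096 for pericytes, smooth muscle and meninges. They were -0.11 for cortical pyramidal neurons, 0.05 for septal and olfactory cells, -0.209 for hypothalamic neurons, 0.134 for hippocampal fields, -0.046 for ependyma and -0.075 for choroid plexus. A sum need not measure the cells its list is named for. The choroid plexus sum was 260 to 378 CPM in basal libraries, of which Enpp2 alone gave 205 to 295 CPM. The hippocampal sum was 1109 to 1454 CPM in the same libraries, although the tissue is the accumbens.

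By gene, the medians of these lists were 0.04 for 20 astrocyte, 0.042 for 18 microglia, -0.037 for 23 mature oligodendrocyte, -0.092 for 12 precursor and 0.01 for 16 interneuron genes. They were 0.12 for 15 pericyte and meningeal, -0.04 for 24 cortical, 0.164 for 16 septal and olfactory, -0.14 for 7 hypothalamic, 0.031 for 11 hippocampal, 0.075 for 4 ependymal, 0.053 for 7 choroid plexus and 0.126 for 5 red blood cell genes. Several of these medians turned on 1 library: without high replicate 5 that of septal and olfactory genes was -0.057, that of pericyte and meningeal genes was -0.007 and that of hypothalamic genes was 0.029. Without the 3 high and basal libraries rich in Slc17a7 the septal and olfactory median was -0.024. Without high replicate 4 the hypothalamic median was -0.499. Ermn and Gjc3, both of mature oligodendrocytes, had -0.32 ± 0.16 and -0.28 ± 0.14, and Gpr17, of cells about to myelinate, was at 30.3 to 36.9 CPM in high libraries and 28.2 to 51.0 CPM in basal libraries (-0.34 ± 0.15). Ptprz1, a phosphatase of precursors, had -0.27 ± 0.14. C1qc, a microglial complement gene, had 0.29 ± 0.15 and Sox9, an astrocyte factor, had 0.24 ± 0.12. Pvalb, of fast-spiking interneurons, had 0.52 ± 0.28, and Slc18a3, the vesicular transporter of cholinergic interneurons, had 0.53 ± 0.31. The transcription factors Zbtb20 and Onecut2, on the hippocampal and septal lists, had 0.32 ± 0.14 and 0.41 ± 0.18. All of these lists were mixed. Members above and below 0 numbered 12 and 8 for astrocytes, 11 and 7 for microglia and 8 and 8 for interneurons. They numbered 9 and 14 for mature oligodendrocytes, 4 and 8 for precursors, 7 and 4 for hippocampal and 12 and 4 for septal genes. Among those going the other way were C1ql1 of precursors (0.39), P2ry12 of microglia (-0.24) and Gbx2 of interneurons (-0.46).

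At the low rate no gene was called either: edgeR gave 0 calls against basal, 196 at an unadjusted p under 0.05 (1.42%) and DESeq2 gave 0, with 263 at that level. Between the rates, high minus low, 0 genes were called by edgeR with 292 at an unadjusted p under 0.05 (2.12%), and 0 by DESeq2 with 397. The smallest p there was that of Ckm, a muscle gene with a mean under 5 CPM (log2 fold change 1.84 ± 0.43, unadjusted p 0.0003). The 5 of smallest p with a mean of at least 5 CPM included Ttn (1.03 ± 0.29) and Acta1 (1.02 ± 0.30), also muscle genes described above. The others were C1ql1, a secreted synaptic organiser (0.75 ± 0.22), Ppfibp2, a liprin scaffold (0.64 ± 0.18), and Wdr55 (0.65 ± 0.19), with unadjusted p-values from 0.00203 to 0.00248. Penk had 0.35 at the low rate and 0.38 at the high rate against the same basal libraries, Gpr6 had 0.50 and 0.44, and Insig1 had 0.12 and 0.14.

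The same contrast was set beside that in the other regions. In the hypothalamus 26 genes were called (0.184%), with 3406 at an unadjusted p under 0.05 (24.1%), and in the hippocampus 0 were called by edgeR, with 353 at an unadjusted p under 0.05 (2.61%). The difference between tissues was tested as an interaction in all 52 libraries. Against the hypothalamus 0 genes passed (lowest adjusted p 0.228), with 2821 at an unadjusted p under 0.05 (18.8%). Against the hippocampus 0 passed, with 357 at that level (2.38%). DESeq2 called 0 in both, with 3115 and 483. Beside the hypothalamic values stands a lean to GC-rich transcripts of 0.415 to 0.7 in 3 of its 5 basal libraries and -0.6 to 0.157 in its 5 high libraries, whose part in the difference was not tested.

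Insig1 had a log2 fold change of 0.14 ± 0.13 in the accumbens, 0.71 ± 0.12 in the hypothalamus and 0.52 ± 0.13 in the hippocampus; the unadjusted p of the difference was 0.00413 against the hypothalamus and 0.0414 against the hippocampus. Dcc, the netrin receptor, had 0.07 ± 0.60 in the accumbens, where it ranged from 2.72 to 27.2 CPM in high libraries and 3.03 to 20.9 CPM in basal libraries. Its values were 2.24 ± 0.26 in the hypothalamus and 2.33 ± 0.56 in the hippocampus (unadjusted p of the difference 0.00837 and 0.00436). Angptl4 had -0.41 ± 0.24, -1.11 ± 0.21 and -0.32 ± 0.26 in the 3 regions in that order. Insr had -0.16 ± 0.13, 0.39 ± 0.18 and 0.23 ± 0.17, and the unadjusted p of its difference was 0.038 against the hypothalamus and 0.113 against the hippocampus.

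No interaction gene passed the adjusted threshold. Those of smallest p with a mean of at least 5 CPM pointed opposite ways in the tissues compared, which ranking by that p favours. Genes with a lower mean or a predicted name were left out of that ranking. Against the hypothalamus they were Adra1a, an alpha-1 adrenergic receptor (-0.49 ± 0.26 in the accumbens and 1.31 ± 0.36 in the hypothalamus), Acd, a telomere protein (0.37 ± 0.14 and -0.65 ± 0.22), Rbm17, a splicing factor (0.24 ± 0.11 and -0.64 ± 0.20), Morn2 (1.03 ± 0.26 and -1.08 ± 0.48) and Myh4 (1.70 ± 0.54 and -0.69 ± 0.40). Against the hippocampus they were Mal, a myelin proteolipid (-0.16 ± 0.16 in the accumbens and 0.67 ± 0.16 in the hippocampus), Tspan2, a tetraspanin of myelinating cells (-0.31 ± 0.15 and 0.47 ± 0.14), Nhlrc2 (-0.40 ± 0.23 and 0.80 ± 0.28), Pld1, a phospholipase (-0.34 ± 0.14 and 0.33 ± 0.17), and Gjc3 (-0.28 ± 0.14 and 0.38 ± 0.16). Of these 5, Mal, Tspan2 and Gjc3 are genes of myelinating oligodendrocytes. The 23 mature oligodendrocyte genes had a median of -0.037 in the accumbens, -0.058 in the hypothalamus and 0.57 in the hippocampus.

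**Figure D5:**
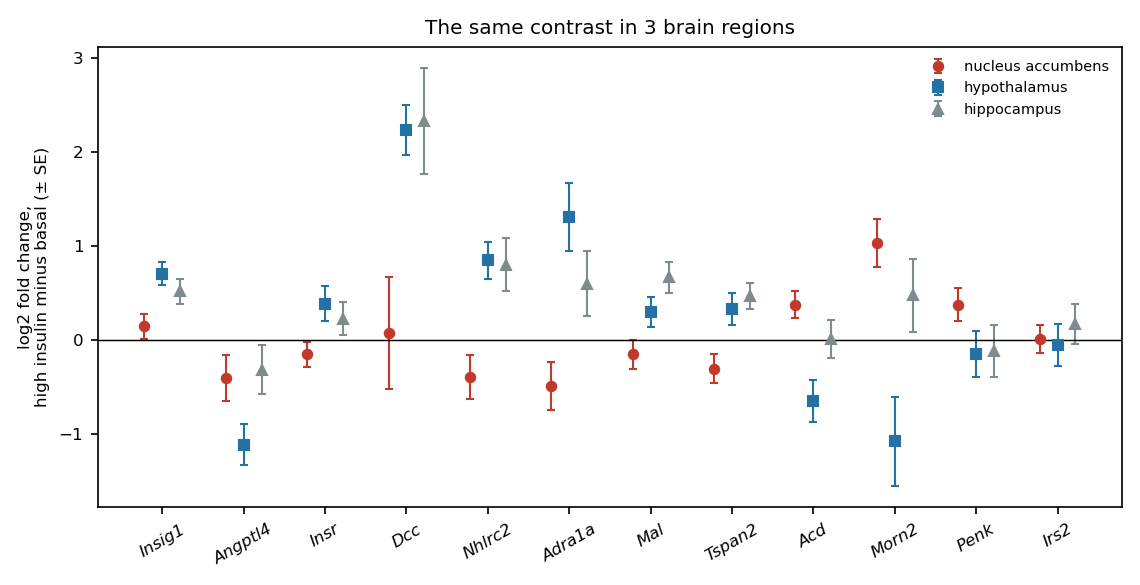
Log2 fold change (y axis, high insulin minus basal, ± SE from edgeR) of 12 genes in the nucleus accumbens, the hypothalamus and the hippocampus. Insig1 is at 0.14, 0.71 and 0.52 and Dcc at 0.07, 2.24 and 2.33 in that order, and no difference between tissues passed the adjusted threshold.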

How the data were processed

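Hypothalamus, hippocampus and nucleus accumbens were profiled as 52 RNA libraries, and 18 accumbens libraries (6 high, 6 low, 6 basal) entered the main model. The values are read counts per Ensembl gene, deposited by the authors as 1 table without normalization. Per the submitters' processing notes the tools were STAR and featureCounts on GRCm38.p4. Their options and strand setting are not stated there, so overlapping antisense genes and near-identical families such as ribosomal proteins are uncertain. No molecular identifiers are described, and PCR copies may be counted.

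Among its 46071 genes, 14321 had no count. Of all genes, 45143 were matched to GENCODE symbols and the other 928 hold 0.127% of counts. In none of 45 within-group library pairs did the counts agree within sampling noise (chi-square per gene 3.46 to 25.6). edgeR 4.0.16 in R 4.3.3 applied filterByExpr, TMM and a robust quasi-likelihood fit of infusion group, with Benjamini-Hochberg adjustment over all genes tested and a threshold of 0.05. Intervals cover 95%, and CPM uses TMM-scaled library sizes. Interactions came from 1 fit of 52 libraries, which takes them as independent. Marker sums were compared by exact permutation over 924 splits of 12 libraries (scipy 1.17.1), adjusted over 15 lists.

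The comparison, the 40 lists and the tests were chosen with earlier results of these data known, so lists are described by counts and medians only. Genes were named by rule. The rule took the 10 higher and 10 lower of smallest p with a mean of at least 5 CPM. It also took up to 4 members per list and 13 fixed genes of insulin and striatal biology. Up to 5 genes per further contrast were added under the same CPM limit. Mybpc2, Tnnt3, Ckm and Neb, the genes without overlap between groups and those in the last observations were chosen after their values were seen, and 1 gene is not reported here. DESeq2 1.42.0, limma-voom (limma 3.58.1), sva 3.50.0 and other settings served as alternatives, and the fit was tested on simulated counts.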

Additional observations from a re-analysis of the deposited data

Results flagged for a closer look

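In 17 of 252 groups of 6 values, 1 library lay farther from the others than Dixon's test allows (gap over range above 0.625). For independent, normally distributed values chance flags about 1 in 20, or 12.6 of 252. These values are CPM from the same 12 libraries, mostly of genes named for a small p. The 12.6 is therefore no measured chance count for them. Basal replicate 1 held 4 of the 17 and high replicate 5 held 3.

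In high libraries, Slc17a7, the cortical glutamate transporter, was at 546.4 CPM in replicate 5, where the others were at 5.26 to 69.6 CPM. In the same library the summed cortical pyramidal markers reached 3991.0 CPM (others 1643 to 2476) and the summed septal and olfactory markers 789.7 CPM (others 440.2 to 553.8). Replicate 3 was lowest for Insig1, at 47.93 CPM (others 66.6 to 75.5), and for Pvalb, the parvalbumin of fast-spiking interneurons, at 4.596 CPM (others 14.9 to 18.1). Replicate 1 was highest for Foxo6, a FOXO factor of neurons, at 18.74 CPM (others 6.45 to 7.54), and for Zap70, a kinase of T cell receptors, at 5.16 CPM (others 2.39 to 3.09). Replicate 2 was highest for Rab5c, at 136.4 CPM (others 108.3 to 118.0), and for Ccdc163, at 5.331 CPM (others 3.802 to 4.092).

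In basal libraries, Slc17a7 was at 730.0 CPM in replicate 3 (others 1.63 to 270.6). Replicate 1 was highest for Sfswap, at 90.84 CPM (others 67.1 to 73.3), for Acd, at 21.22 CPM (others 15.5 to 16.7), and for Foxo6, at 11.92 CPM (others 4.17 to 6.82), and lowest for Rab5c, at 81.54 CPM (others 101.3 to 107.9). Replicate 4 was highest for Mybpc2, at 2.721 CPM (others 0.853 to 1.43), and replicate 6 for Slc18a3, the acetylcholine transporter, at 14.92 CPM (others 6.32 to 8.11). Replicate 5 was lowest for Ntn1, at 26.83 CPM (others 34.6 to 38.1).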

How the results depend on the processing

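No gene was called for high insulin minus saline in any of 28 settings, and 0 were called in every setting of the other accumbens contrasts and of the tissue differences. At an unadjusted p under 0.05 the 326 genes became 202 to 653 when single libraries were left out, 878 without the cortex-rich and 1037 without the muscle-rich libraries, and 1046 with no filter. Those 2 exclusions and the GC lean were added after seeing the data. Without high replicate 3 the lowest adjusted p was 0.322. Libraries with neighbouring tag numbers form 6 runs of 1 high, 1 low and 1 basal library. Deviations of high and basal libraries of a run correlated at -0.26 to 0.342, above 0.1 in 3 of 6 runs, and the runs were not taken to pair the samples. With the tag run block 0 genes were called and 564 had an unadjusted p under 0.05. Of 110 genes examined, 107 kept their sign in every setting. Most were named for a small p in the same contrast, which favours a kept sign, so this count does not test stability. Those that changed sign, Irs2, Slc17a7 and Dcc, all belonged to the fixed genes. The share of all tested genes that kept their sign is not given. Of the 110 genes, 33 moved by over 1.5 times when some 1 library was left out. Medians of 26 of the 40 lists changed sign in that way. Irs2 (0.01) changed sign with the GC lean (-0.0505), limma-voom (-0.0039), the tag range (-0.000588) and the tag run block (-0.0101), and ran from -0.104 to 0.0903 when single libraries were left out. Slc17a7 (-0.60) was 1.25 with 1 surrogate variable, 0.164 with the cortical markers, 0.405 with limma-voom, 0.872 with total count as a covariate, 0.69 without cortex-rich libraries and -2.67 to 0.781 without single ones. Dcc (0.07) was -0.252 with limma-voom, -0.0125 and -0.115 without cortex-rich and muscle-rich libraries, and -0.289 to 0.298 without single ones. The cause was not tested. At these depths, differences below the intervals given could not be seen.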

Other observations

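A few genes were shared by only a pair of libraries. Among 11719 genes with a mean of at least 5 CPM, both libraries of a pair exceeded 2 times the highest of the other 16 accumbens libraries in 3 of 153 possible pairs and in none of the other 150. These genes were chosen for their values and are described without a test.

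High replicate 5 and basal replicate 3, both rich in Slc17a7, shared 6 such genes. Low replicate 4 (559 CPM of Slc17a7) and basal replicate 1 (271 CPM) were also rich in it, but were among the other 16 libraries. Cdhr1, a cadherin known from photoreceptors and olfactory bulb neurons, was at 75.8 CPM in high replicate 5 and 51.2 CPM in basal replicate 3, against at most 18.7 CPM elsewhere. Lgr6, an R-spondin receptor, was at 43.7 and 32.4 CPM in those libraries in the same order, against at most 5.33 CPM, and its relative Lgr5 was at 43.7 and 27.3 CPM, against at most 11.5 CPM. Sp8, a transcription factor of olfactory bulb interneurons, was at 36.8 and 26.7 CPM, against at most 11.0 CPM. Grm2, a glutamate receptor, and Tuba8, an alpha tubulin, completed the set. The pair spans both infusion groups.

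High replicates 4 and 6, the libraries lowest in endothelial markers, shared 5 genes: Gucy1a2, Lnpep, Dgkh, Fzd3 and the predicted gene Gm38020. Fzd3, a Wnt receptor of axon guidance, was at 33.7 and 45.3 CPM in them, against at most 14.8 CPM in the other 16 libraries. Dgkh, a diacylglycerol kinase, was at 21.6 and 22.1 CPM, against at most 7.56 CPM. Both libraries of this pair belong to the high group. The log2 fold change was 1.56 for Gucy1a2 and 1.43 for Lnpep. Both genes also had positive log2 fold changes, high insulin minus basal, in the hypothalamus and the hippocampus. Neither gene passed the adjusted threshold in those regions. High replicates 5 and 6 shared 1 gene, the muscle pump Atp2a1.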
